A study of Homo sapiens with 2 samples.

Results

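The 10 genes described here encode the enzymes that make serine from a glycolytic intermediate and pass its side-chain carbon to folate. They were taken by name: PHGDH, PSAT1 and PSPH for serine synthesis, SHMT1 and MTHFD1 for the cytosolic folate branch, and SHMT2, MTHFD2, MTHFD2L, MTHFD1L and ALDH1L2 for the mitochondrial branch. All 10 were found among the 23686 gene symbols of the deposited tables. The study sequenced the poly(A) RNA of A427, an established human non-small cell lung carcinoma line kept in serum-containing RPMI medium, of which some cells adhere while others form spheres in suspension. The series title calls the line CTNNB1-mutated, and the sample labels give its genotype as WT without naming a gene. One library came from the adherent cells and 1 from the floating, sphere-forming cells, and the labels name no agent for either, so the comparison asks how transcript levels of one line differ between its growth forms.

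There was no replicate of either form. No test across genes was therefore possible and no p-value is given. The difference between the growth forms and any difference between 2 single cultures or library preparations cannot be told apart. The intervals beside ratios are 95% intervals that cover counting error only. The libraries held 26384670 (adherent) and 27148842 (floating) gene-assigned reads. Of all symbols, 13131 reached 1 CPM (reads scaled to 1000000 per library) in at least 1 library and were compared, among them 9 of the 10 enzymes. Epithelial markers were present. Of 6 such genes 4 (adherent) and 5 (floating) reached 1 TPM, a level scaled for transcript length, and their sum was 1304 and 1791 TPM. KRT8 (327 and 581 TPM) and KRT18 (342 and 613 TPM) were higher in floating cells, and EPCAM (615 and 582 TPM) and CDH1 (18.85 and 13.9 TPM) were lower in TPM. The lung lineage factor NKX2-1 was at 0.12 and 0.46 TPM. Mesenchymal markers reached 1 TPM at 2 of 6 genes in both libraries, VIM at 5264 and 4850 TPM and COL1A1 at 13.9 and 7.98 TPM. The part of these shifts in the results below was not tested. Of markers of other cells, 0 of 4 endothelial genes reached 1 TPM, with sums of 0.14 and 0.42 TPM, 1 of 3 neuroendocrine genes did (SYP, 20.3 and 12.5 TPM) and CD3E was at 0 in both libraries. In the blood cell list 2 of 5 genes, PTPRC and CD68, exceeded 1 TPM, with sums of 19.8 and 33.6 TPM, and CD68, a lysosomal protein also made outside blood, was at 16.9 and 31.5 TPM. In RNA of whole cultures, fewer cells that express a gene and less RNA per cell cannot be told apart.

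Serine synthesis branches off glycolysis. PHGDH oxidises 3-phosphoglycerate, PSAT1 transaminates the product with glutamate, and PSPH removes the phosphate to give serine. The serine hydroxymethyltransferases SHMT1 (cytosol) and SHMT2 (mitochondria) then split serine into glycine and a one-carbon unit bound to tetrahydrofolate, which feeds purine, thymidylate and methionine synthesis. In mitochondria MTHFD2 or MTHFD2L oxidises that unit, MTHFD1L releases it as formate, and ALDH1L2 oxidises it to carbon dioxide with production of NADPH. In the cytosol the trifunctional MTHFD1 takes formate back into the folate pool. Several of these genes, PSAT1 and MTHFD2 among them, are known targets of ATF4, the transcription factor of the amino acid response. The mitochondrial branch is often abundant in proliferating tumour cells.

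To set the differences beside the genes themselves, promoter sequence was read from RefSeq (GRCh38.p14), which held windows from 250 bases before to 50 bases after a transcription start for 7 of the 10 enzymes. The deposited tables were made on hg19 and carry no coordinates, so sequence and expression were joined by symbol alone. No window was at hand for PSPH, SHMT2 and ALDH1L2. The letters of 3 motifs were searched on both strands: TGATGNAAN, the composite element bound by ATF4 with C/EBP partners, CCAAT, the box bound by NF-Y, and CACGTG, the E-box bound by MYC and other helix-loop-helix factors. The motifs do not contain one another. The sequences shown are those of PSAT1 and MTHFD1L, which had the largest ratios among the tested enzymes, and short sites of 4 enzymes with smaller or opposite differences. All run 5′ to 3′ on the gene's strand, and capitals mark the matches.
PSAT1, chr9:78296975-78297124, plus strand, the 150 bases before the start: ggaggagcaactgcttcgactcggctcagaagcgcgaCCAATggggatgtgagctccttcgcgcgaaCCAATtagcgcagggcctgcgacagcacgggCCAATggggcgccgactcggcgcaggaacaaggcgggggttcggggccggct
MTHFD1L, chr6:150866183-150866332, plus strand, the 150 bases before its first start: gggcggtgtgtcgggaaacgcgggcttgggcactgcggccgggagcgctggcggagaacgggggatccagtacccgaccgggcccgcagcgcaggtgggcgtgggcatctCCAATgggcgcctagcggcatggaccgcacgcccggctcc
MTHFD1L, chr6:150866347-150866375, plus strand, amino acid response letters: ccgccggctcTGATGCAATcgcgccgggc
PHGDH, chr1:119711851-119711879, plus strand, CCAAT letters: gagtatttccgtCCAATcaaaaggagact
MTHFD2, chr2:74198419-74198447, plus strand, first CCAAT letters: gctcttctggctCCAATcaaaagcagggc
MTHFD2, chr2:74198529-74198557, plus strand, second CCAAT letters: atgcggcagggaCCAATgggtggcggagg
SHMT1, chr17:18363610-18363638, minus strand, CCAAT letters: gctgcgccgcagCCAATagcgcgggtgcg
SHMT1, chr17:18363559-18363587, minus strand, CCAAT letters read on the other strand: ctgcgctctctgATTGGgcgcctccgggg
MTHFD1, chr14:64388326-64388355, plus strand, E-box letters: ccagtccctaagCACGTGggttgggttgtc

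PSAT1 held 3 CCAAT boxes, which began 113, 83 and 52 bases before its start. At least 3 such boxes occurred in 3.26% of all 35116 windows. At least 1 CCAAT was present for 6 of the 7 enzymes with a window, against 39.7% of all genes with one. MTHFD2L had none in either of its 2 windows. The ATF4 composite letters occurred only in MTHFD1L among the 7, against 4.45% of all genes. This is a single match, which falls in 3 overlapping windows of its 4, and the other window begins farther downstream. The letters began at base 25, counting the first annotated start as base 1, and 129 bases before the start farthest downstream of these 3. The E-box letters were found in MTHFD1L and MTHFD1, against 8.77% of all genes. CCAAT was thus shared by enzymes that were higher and lower in floating cells: PSAT1, PHGDH, MTHFD2 and MTHFD1L on one side and SHMT1 on the other. These are matches of letters, not measured binding.

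Of the serine synthesis enzymes, PSAT1 stood apart. PSAT1 had 2552 reads in adherent and 4154 reads in floating cells, and its level was 103 and 157 TPM. The ratio of scaled reads was 1.57-fold in favour of floating cells (interval 1.5 to 1.65). Among the tested genes 2.86% had a larger ratio. PHGDH, the first enzyme of the branch, had 1223 and 1394 reads, or 53.8 and 57.5 TPM, and was 1.1-fold higher in floating cells (1.02 to 1.19). PSPH, the last, had 1354 and 1532 reads, or 56.3 and 59.8 TPM, and was 1.09-fold higher (1.02 to 1.18). The 3 consecutive steps therefore differed unequally. Whole-library scaling cancels when 2 genes of the same libraries are compared: the read ratio of PSAT1 to PHGDH was 1.43 times as large in floating cells (interval 1.3 to 1.56) and that of PSAT1 to PSPH 1.44 times (1.32 to 1.57). The ratio of PHGDH to PSPH was 1.01 times as large, with an interval of 0.906 to 1.12 that included no difference.

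**Figure D1:**
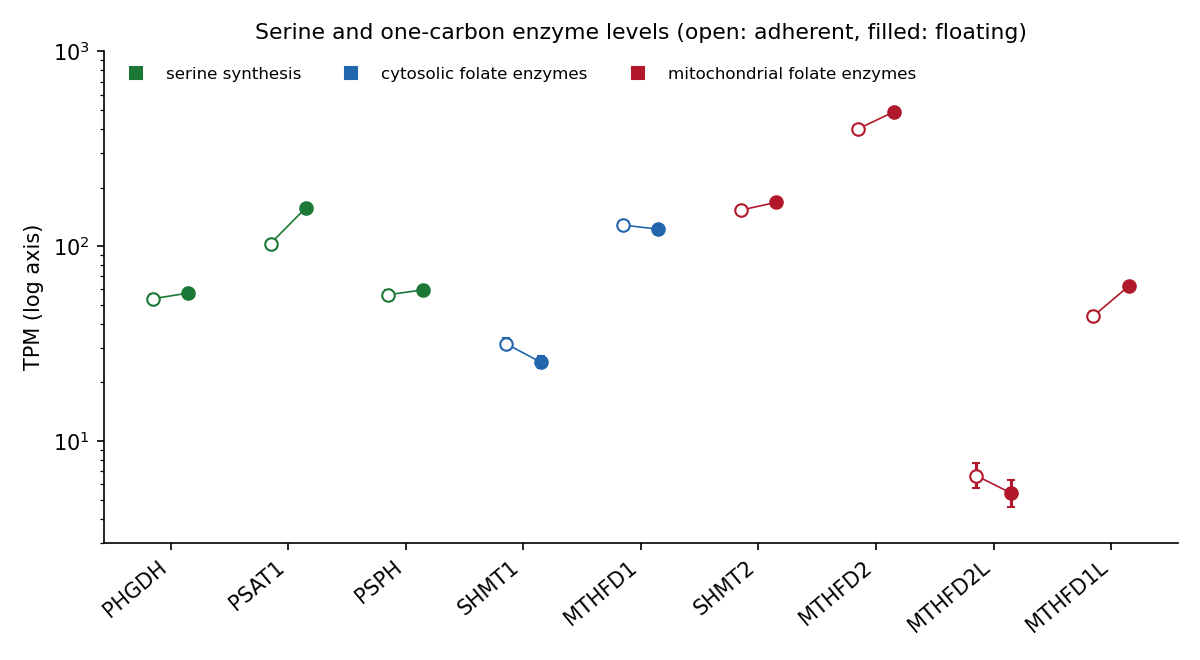
Level of each tested enzyme in TPM (log axis) in the adherent (open) and floating (filled) library, coloured by role, with exact Poisson 95% intervals of the reads that are hidden by the symbols for most genes. PSAT1 goes from 103 to 157 TPM and MTHFD1L from 43.9 to 62.4 TPM, while SHMT1 goes from 31.65 to 25.4 TPM.

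Enzymes of the mitochondrial branch were higher in floating cells at 3 of the 4 tested genes. SHMT2, which starts the branch, had 3969 and 4652 reads, or 153 and 168 TPM, a ratio of 1.13 (interval 1.09 to 1.18). MTHFD2, the dehydrogenase and cyclohydrolase of the next steps, had 10050 and 13086 reads, or 401 and 489 TPM, a ratio of 1.26 (1.23 to 1.29). MTHFD1L, the formate-releasing ligase, had 1195 and 1719 reads, or 43.9 and 62.4 TPM, a ratio of 1.39 (1.29 to 1.5). Its implied transcript length differed between the libraries, so its TPM ratio was larger, 1.42. Along these steps the ratio was larger at each later enzyme. The read ratio of MTHFD2 to SHMT2 was 1.11 times as large in floating cells (1.06 to 1.17), and that of MTHFD1L to SHMT2 1.23 times (1.13 to 1.34). MTHFD2 to MTHFD1L gave 0.905 (0.837 to 0.979). MTHFD2L, a relative of MTHFD2 with the same reaction, went the other way: it had 180 and 156 reads, or 6.65 and 5.4 TPM, and was 1.19-fold lower, with an interval from 1.49-fold lower to 1.04-fold higher that included no difference.

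ALDH1L2 was close to absent. It had 0 reads in adherent and 2 reads in floating cells (0.02 TPM). A count of 0 allows up to 3 reads, or 0.114 CPM, in the adherent library, so no difference was detectable at this depth and ALDH1L2 was not among the tested genes. Its cytosolic counterpart ALDH1L1 had 0 and 1 reads. Neither folate dehydrogenase that turns the formyl group into carbon dioxide had more than 3 reads in either library.

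The cytosolic enzymes did not share the excess. SHMT1 had 906 reads in adherent and 775 in floating cells, or 31.65 and 25.4 TPM, which made it 1.21-fold lower in the floating library (interval 1.1 to 1.33). Among tested genes 14.3% had a smaller ratio. MTHFD1 had 5237 and 5322 reads, or 128 and 122 TPM, and its ratio of 0.98 had an interval of 0.945 to 1.02 that included no difference.

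**Figure D2:**
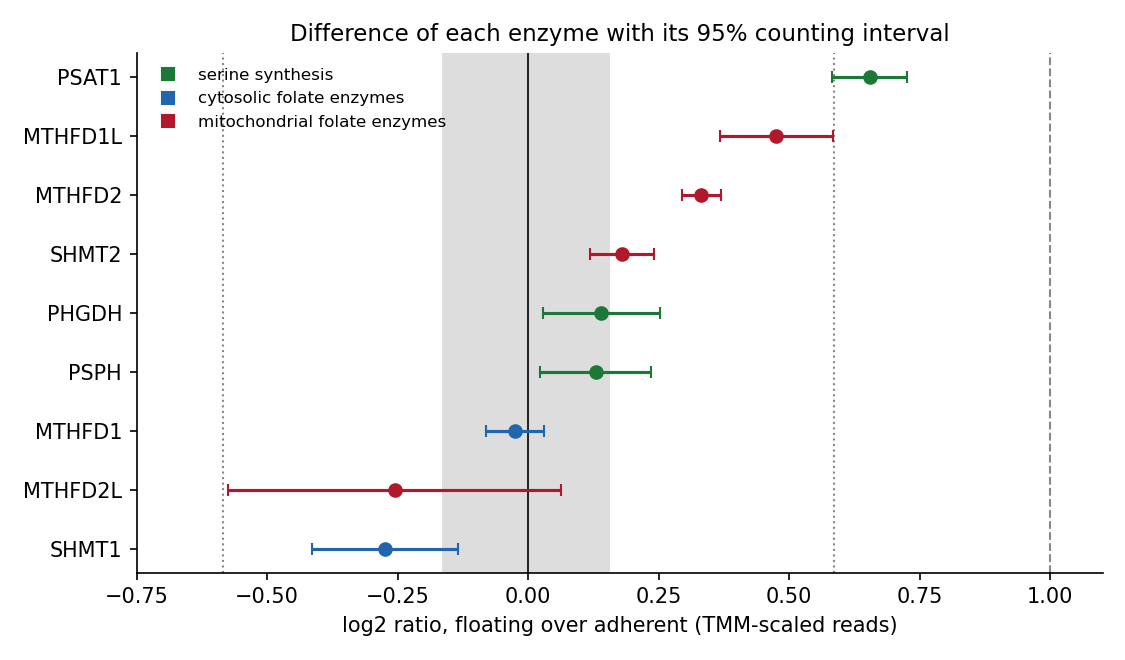
Log2 ratio of scaled reads, floating over adherent, for the 9 tested enzymes with 95% counting intervals, ordered by size and coloured by role. Grey marks the quartiles of all tested genes (-0.17 to 0.16), dotted lines 1.5-fold and the dashed line 2-fold; 4 enzymes lie right of the grey band, with PSAT1 farthest at 0.65, and SHMT1 and MTHFD2L lie left of it.

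Counted together, none of the 9 tested enzymes was at least 2-fold apart with an interval excluding no difference. Over all tested genes 1.28% were higher and 0.754% lower in floating cells by that rule. At 1.5-fold PSAT1 alone was called higher and no enzyme lower, against 3.24% and 2.9% of all tested genes, and the lower end of its interval, 1.497, lay just under 1.5-fold. Among genes of at least 10 CPM, to which PSAT1 belongs, the shares were smaller, 1.53% higher and 1.61% lower. Intervals lay above no difference for 6 of 9 enzymes (PSAT1, MTHFD1L, MTHFD2, SHMT2, PHGDH and PSPH) and below it for 1 (SHMT1), while 25.5% of all tested genes had intervals above and 25.6% below. The members' median log2 ratio was 0.14, that of all tested genes -0.0048. The enzymes are abundant and their intervals narrow, so an interval that excludes no difference is reached here by small differences: those of PHGDH and PSPH lay within the quartiles of all tested genes (-0.17 to 0.16).

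**Figure D3:**
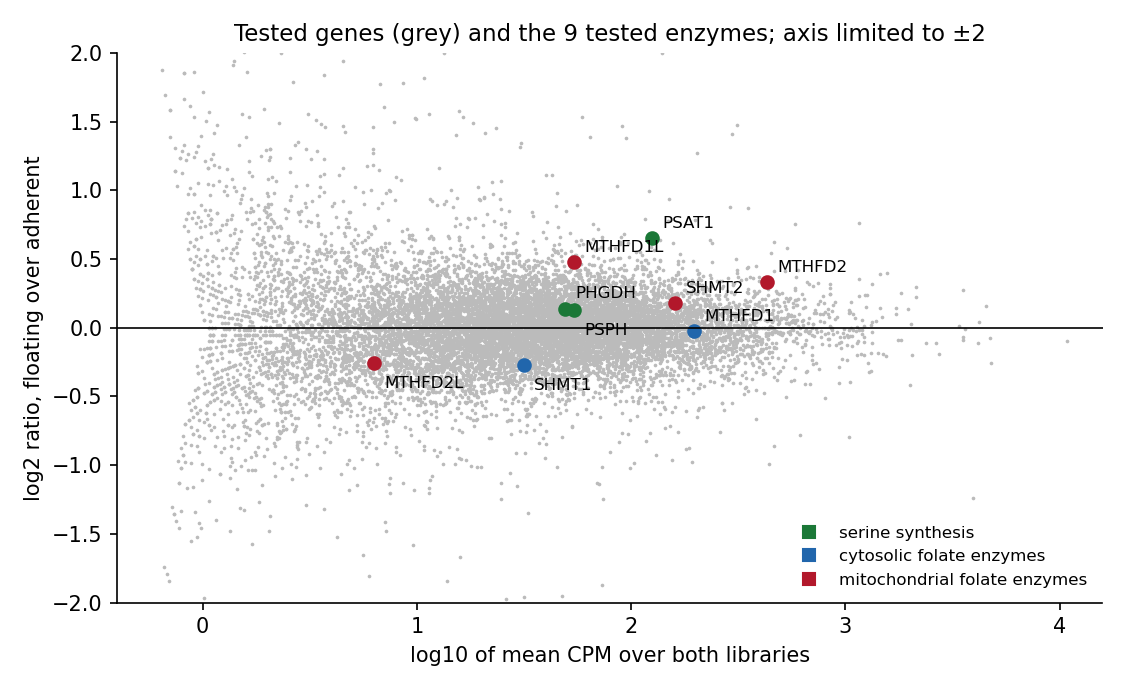
Log2 ratio, floating over adherent, against log10 of the mean CPM of both libraries for all tested genes (grey) and the 9 tested enzymes (coloured by role); 40 genes beyond a log2 ratio of 2 in size fall outside the axis. PSAT1 and MTHFD2 lie in the upper part of the cloud, MTHFD1 near the zero line and SHMT1 below it.

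Neighbours in the order of ratios could be told apart by the counting error of their reads at 4 of 8 places. PSAT1 exceeded MTHFD1L (their read ratio was 1.13 times as large in floating cells, 1.04 to 1.24), MTHFD1L exceeded MTHFD2, MTHFD2 exceeded SHMT2 and PSPH exceeded MTHFD1 (1.11, 1.03 to 1.21). SHMT2 and PHGDH did not differ beyond their intervals, nor did PHGDH and PSPH, MTHFD1 and MTHFD2L, or MTHFD2L and SHMT1. Read ratios do not cancel the difference in implied transcript length of MTHFD1L. In TPM, PSAT1 over MTHFD1L was 2.35 (2.2 to 2.52) in adherent and 2.52 (2.38 to 2.67) in floating cells. PSAT1 kept the larger ratio between the libraries in TPM as well (1.53 against 1.42 for MTHFD1L). The intervals of the quotients overlap, so in TPM it was not settled whether PSAT1 and MTHFD1L differed beyond counting error.

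Levels per transcript length spanned a wide range among the enzymes. MTHFD2 was the most abundant and made up 41% of the summed TPM of the 10 genes in adherent and 42.6% in floating cells, and 97.9% and 98.3% of expressed genes had lower TPM. SHMT2 came next in both libraries. In adherent cells MTHFD1, PSAT1, PSPH, PHGDH, MTHFD1L, SHMT1 and MTHFD2L followed in this order, and in floating cells PSAT1, MTHFD1, MTHFD1L, PSPH, PHGDH, SHMT1 and MTHFD2L. PSAT1 and MTHFD1L thus moved up in the order, each past its neighbours. PHGDH and PSPH did not differ from each other in TPM beyond counting error in either library, and the Poisson intervals of MTHFD1L (59.5 to 65.4 TPM) and PSPH (56.8 to 62.8 TPM) overlapped in floating cells. The serine enzymes summed to 213 TPM (adherent) and 275 TPM (floating), the mitochondrial ones to 605 and 725 TPM, and the cytosolic ones to 160 and 148 TPM.

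The balance of transcripts between compartments therefore differed between the libraries. SHMT2 exceeded SHMT1 in TPM by 4.84-fold in adherent cells (interval 4.50 to 5.2) and by 6.62-fold in floating cells (6.14 to 7.15), and the read ratio of this pair was 1.37 times as large in floating cells (1.23 to 1.52). The formate ligase MTHFD1L stood at 0.341 of the level of MTHFD1, which carries the cytosolic counterpart of its activity, in adherent cells and at 0.51 in floating cells. From reads, that ratio was 1.42 times as large in floating cells (1.3 to 1.54). MTHFD2 exceeded MTHFD2L by 60.3-fold (52.1 to 69.9) and 90.6-fold (77.4 to 106). Summed over the branches, mitochondrial exceeded cytosolic enzymes by 3.78-fold in adherent and 4.91-fold in floating cells, and the ratio of summed reads was 1.28 times as large in floating cells (1.23 to 1.34). These sums set 4 mitochondrial genes against 2 cytosolic ones, so their ratio is not a measure of branch capacity. The mitochondrial sum is carried mainly by MTHFD2 and the cytosolic sum mainly by MTHFD1.

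**Figure D4:**
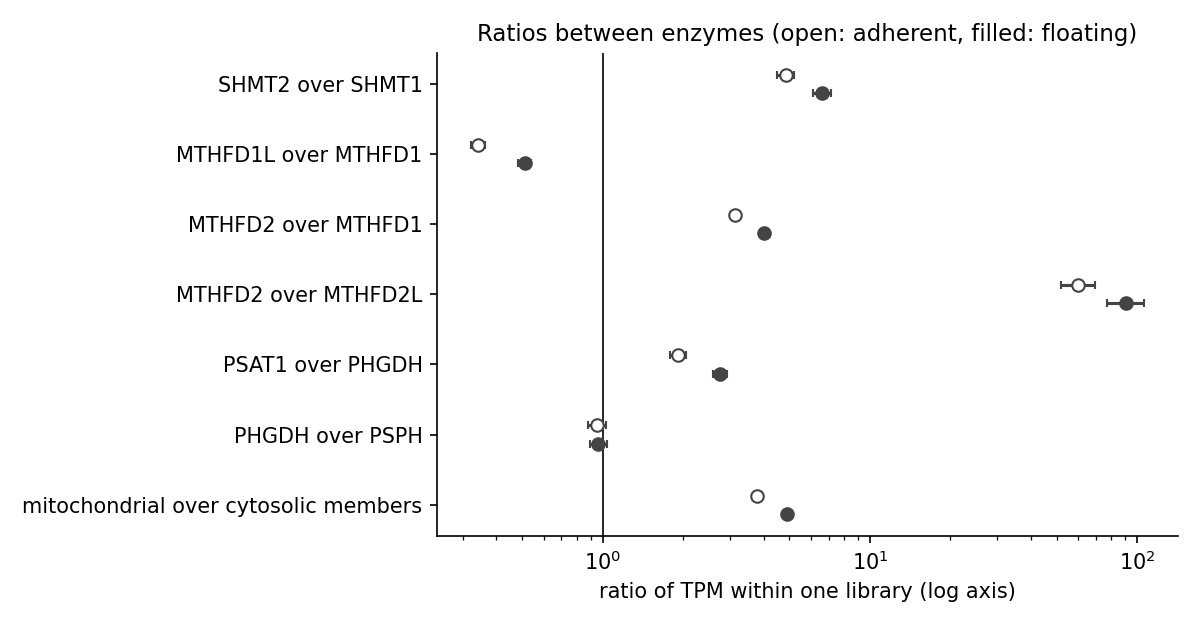
Ratio of TPM between the named enzymes within the adherent (open) and the floating (filled) library on a log axis, with 95% counting intervals. The SHMT2 to SHMT1 ratio is 4.84 and 6.62, the ratio of PHGDH to PSPH stays at 0.955 and 0.962, and that of summed mitochondrial to cytosolic enzymes is 3.78 and 4.91.

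Reads assigned to the enzymes were not split with other listed genes, since the estimates of all 10 are whole numbers in both libraries. That covers only overlaps held in the authors' annotation, which is not stated, and no source used here says whether counting used strand. In GENCODE 29 the exons of 5 of the 10 enzymes overlap exons of a gene on the opposite strand. For MTHFD2 the partner SLC4A5 shares 29.7% of the exon bases and had 67 and 64 reads in its own row. For SHMT1 the partner SMCR8 shares 6.95% and had 2199 and 2489 reads, higher where SHMT1 was lower. Whether any read of these pairs was counted for the wrong gene was not tested. PSAT1, PHGDH, PSPH and MTHFD1L had no such partner.

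The neighbouring pathways were described from 8 lists of 63 genes, of which 50 were tested. By the 2-fold rule 0 of the 50 were called in either direction, against 1.28% higher and 0.754% lower among all tested genes. Intervals lay above no difference for 21 and below it for 13, against 25.5% and 25.6% of all tested genes. The median log2 ratio was 0.02. As for the enzymes, abundant genes have narrow intervals, which small differences can place above or below no difference. The glycine cleavage system, which breaks glycine down in mitochondria and yields another one-carbon unit, had 3 of 4 tested genes with intervals above and none below (median 0.21). Its decarboxylase GLDC was at 21.9 and 29.1 TPM, 1.37-fold higher in floating cells (1.27 to 1.49), and its carrier protein GCSH, an estimate with decimals, was 1.16-fold higher. Purine synthesis, which consumes formyl-folate, had 5 of 6 genes above and 1 below (median 0.18), with ADSL 1.20-fold and PFAS 1.16-fold higher. The 1 below was ATIC, which uses a formyl-folate directly, at 242 and 225 TPM (1.05-fold lower, 1.01 to 1.08). GART, which also uses a formyl-folate directly, was among those above, at 154 and 167 TPM (1.14-fold higher, 1.09 to 1.18).

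Thymidylate synthesis had 1 of 3 tested genes with an interval above and 1 below no difference (median -0.09). TYMS, the synthase, was abundant at 549 and 568 TPM and 1.07-fold higher (1.04 to 1.1). Folate uptake and retention had 0 of 5 tested genes with intervals above and 1 below (median 0.02, mean -0.06). The reduced folate carrier SLC19A1 was at 17.98 and 18.45 TPM (1.06-fold, 0.943 to 1.18). The gene below was GGH, the hydrolase that removes glutamate tails from folate, at 240 and 181 TPM (1.28-fold lower, 1.23 to 1.35). Of the other folate interconversion enzymes 1 of 3 tested lay above and 1 below no difference (median 0.07). The 1 above was MTHFS, which returns 5-formyl-folate to use, at 18.4 and 23.0 TPM (1.29-fold higher, 1.14 to 1.45).

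Methionine cycle and transsulfuration genes had 5 of 10 intervals above and 2 below (median 0.04). CBS, which condenses serine with homocysteine, was at 63.1 and 75.9 TPM, 1.24-fold higher (1.17 to 1.32), and MAT1A, an S-adenosylmethionine synthetase known mainly from liver, 1.25-fold higher. Carriers of serine and glycine had 3 of 8 above and 2 below (median -0.02). SLC38A2, a sodium-coupled carrier of small neutral amino acids, was at 1024 and 742 TPM, 1.34-fold lower (1.32 to 1.35), and SFXN2, of the mitochondrial sideroflexins, 1.29-fold higher. Uses of serine outside the folate cycle had 3 of 11 above and 5 below (median -0.04, mean 0.08). SERINC2 was 1.84-fold higher at 11.9 and 21.5 TPM, and SPTLC2, a subunit of the enzyme that starts sphingolipid synthesis from serine, 1.20-fold lower (1.15 to 1.25). Beside SERINC2 the only other gene of these 8 lists past 1.5-fold was GCAT (1.53-fold higher, 1.24 to 1.90), named because it completes that count.

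**Figure D5:**
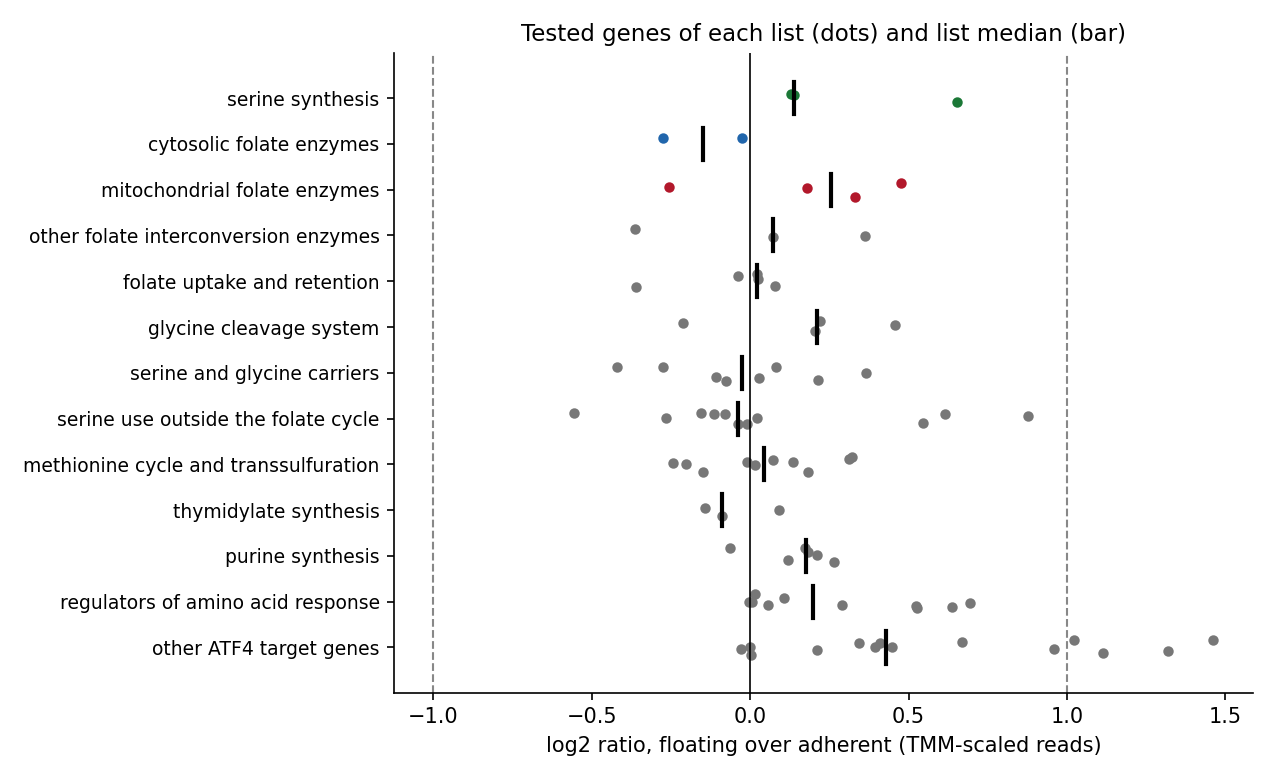
Log2 ratio, floating over adherent, of the tested genes of each list (dots) with the list median (bar); dashed lines mark 2-fold. The medians of the mitochondrial folate enzymes (0.26), glycine cleavage (0.21) and purine synthesis (0.18) lie right of 0, that of the cytosolic folate enzymes (-0.15) left of it, and only genes of the ATF4 target list pass 2-fold.

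Known ATF4 biology was placed beside the enzymes with 2 further lists. ATF4 itself was at 408 and 484 TPM, 1.22-fold higher in floating cells (1.18 to 1.26), and is named outside the rule, with its values known, because these lists turn on it. Regulators of the amino acid response had 7 of 10 intervals above and 0 below (median 0.20), against 25.5% above and 25.6% below among all tested genes. The largest ratios were those of the bZIP partners CEBPB (1.62-fold, 1.5 to 1.75) and CEBPG (1.56-fold, 1.48 to 1.63). Small differences also count here, such as EIF2AK2 at 1.04-fold (1.0005 to 1.08). Of 14 tested genes in a list of ATF4 targets outside one-carbon metabolism, 4 were called higher by the 2-fold rule and 0 lower. Over all tested genes the shares were 1.28% and 0.754%. The 4 were CHAC1, which degrades glutathione, the secreted STC2, the sestrin SESN2 and the transcription factor ATF3, between 2.03-fold and 2.76-fold. Of the 14, 11 had intervals above and 0 below, and the median log2 ratio was 0.43. These counts hold for the listed genes only, and the list is not exhaustive. The list of serine and glycine carriers, counted apart, held SLC38A2 (1.34-fold lower) and had 3 of 8 intervals above and 2 below. ATF3 missed the 2-fold rule on deposited TPM (log2 0.992) and with the length trend removed (0.998), which left 3 called. PSAT1 (0.65) and MTHFD1L (0.48) lay above that median, and MTHFD2 (0.33), SHMT2 (0.18), PHGDH (0.14) and PSPH (0.13) below it. Whether ATF4 had a part in the difference of any enzyme was not tested.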

How the data were processed

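Poly(A) libraries of adherent and floating A427 cells, 1 each, were compared. DNase-treated total RNA went into the KAPA mRNA HyperPrep kit, which captures poly(A) RNA, per the labels' protocols. RSEM 1.3.3, STAR 2.5.3a, FastQC 0.11.1 and build hg19 are named, per the submitters' processing notes. Annotation, settings and strand use were not stated in the labels. The authors deposited estimated counts per gene symbol, not normalized, and TPM, which the authors scaled to a library sum of 1000000. All sample columns were used, matched by title.

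Estimated counts were rounded and scaled by TMM in edgeR 4.0.16 (R 4.3.3). The log2 ratio used a prior count of 0.5. Tested genes had 1 CPM or more in either library or both, and p-values were not computed. Ratio intervals are exact Clopper-Pearson (95%), conditional on a gene's summed reads; those of levels are exact Poisson, and those between 2 genes use the standard error of the log ratio of reads. They cover counting error only, because each growth form has 1 library. Reads without molecular identifiers are not independent molecules, so the intervals may be too narrow even for that error. A gene was called at 2-fold with an interval excluding no difference, and 1.5-fold is given beside it. The calculation was tested on simulated data. The members and lists were chosen with earlier results of these data known. Of each further list, genes past 2-fold are named, or otherwise the 2 of at least 10 CPM with ratios farthest from 0; some genes are not reported here. Symbols were matched directly or by older names. Other steps used Python 3.11.15, scipy 1.17.1 and statsmodels 0.14.6. Alternatives tried were scaling by library totals, by the upper quartile and by size factors of DESeq2 1.42.0, deposited TPM, other prior counts, filters and thresholds, and removal of a length or GC trend.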

Additional observations from a re-analysis of the deposited data

How the results depend on the processing

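The limit of these data is 1 library per growth form. No paired analysis was possible because there is 1 sample a group. Of 107 recalculated member ratios 106 stayed inside the counting interval and every one kept its sign. The exception was MTHFD2 on deposited TPM (log2 0.29). Part of this was fixed in advance: the other filters and the restriction to whole-number estimates change only which genes are tested. Member ratios under these settings equal the main ones by construction, so they do not speak to stability. PSAT1 ranged from 0.61 to 0.66, above 1.5-fold throughout. Genes called higher and lower numbered 286 and 164 with no filter, 64 and 41 with a minimum of 5 CPM, 43 and 33 with a minimum of 10 CPM (chosen after seeing the data), 426 and 381 at 1.5-fold and 32 and 8 at 4-fold. At 1.5-fold 1 member (PSAT1) and 10 genes of the other lists were called higher, and at 4-fold 0 of the latter. With reads not divided by length, SHMT2 over SHMT1 was 4.38 and 6.003 (adherent, floating), MTHFD1L over MTHFD1 0.228 and 0.323, and mitochondrial over cytosolic enzymes 2.51 and 3.22, by construction of that measure. The thymidylate list's median of -0.09 turned to 0.0912 with whole-number estimates only, which left TYMS alone. Under that setting the median of the other folate interconversion enzymes went from 0.07 to -0.15. The folate uptake median of 0.02 turned to -0.023 on deposited TPM and to -0.009 with no filter. The methionine cycle median of 0.04 turned to -0.0009 on deposited TPM. GC content was found for 92.3% of tested genes, including all 9 tested members.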

Other observations

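MTHFD1L differed between the libraries in the transcript length that the deposited values imply. Reads per TPM are proportional to the effective length of a gene, and their ratio between the libraries, centred on the median gene, was nearly the same for most genes: over the 10139 genes of at least 10 CPM the quartiles were -0.0015 and 0.00099 on the log2 scale. For MTHFD1L it was -0.08, and 0.651% of these genes had a lower value. The other 8 tested enzymes lay between -0.0006 and 0.0032. The TPM ratio of MTHFD1L (1.42) accordingly exceeded its ratio of scaled reads (1.39), while for the other tested enzymes it was the smaller one. The deposited tables hold no isoform values, so which transcripts of MTHFD1L account for the difference was not tested.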
